A study of Mus musculus with 24 samples.

Results

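The expression of 8 genes of GABA and glutamate handling was followed across neuronal subtypes of the adult mouse cortex: Gad1, Gad2, Slc32a1 and Abat on the GABA side, and Slc17a7, Slc17a6, Slc17a8 and Slc1a1 on the glutamate side. They are a list named by function, each found through its NCBI Gene number, and make up 8 of the 36528 genes that every library lists. The series holds 24 bulk RNA-seq libraries, 6 from each of the subtypes labelled EXC, PV, SST and VIP. Cortical tissue was digested with papain, and cells that carried the green or red fluorescent protein of a transgenic reporter line and excluded the viability dye DAPI were sorted by flow cytometry. No agent was given in any group, and all groups are adult mice that carry a reporter. By sex, EXC and SST each held 2 female and 4 male libraries, PV 3 of each, and VIP 4 female and 2 male. The labels do not name the driver that marks each subtype, the strain, the exact age or the number of animals behind a library. Each library was therefore taken as 1 replicate, numbered in the order of deposition, and p-values measure the spread between these libraries, which may be partly technical.

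GABA is made from glutamate by glutamic acid decarboxylase, which exists as GAD67 (gene Gad1) and GAD65 (gene Gad2). GAD67 is found throughout the cell and makes most of the brain's GABA, whereas GAD65 is bound to synaptic vesicle membranes in axon terminals and is more often without its cofactor, pyridoxal phosphate. The vesicular transporter VGAT (Slc32a1) loads GABA into vesicles, and GABA transaminase (Abat) breaks it down in mitochondria. Glutamate is loaded by VGLUT1 (Slc17a7), the main form of cortical pyramidal cells, by VGLUT2 (Slc17a6), the main form of thalamic and many other subcortical neurons, and by VGLUT3 (Slc17a8), known from small neuron populations that release another transmitter as well. EAAC1, or EAAT3 (Slc1a1), is a neuronal member of the plasma membrane glutamate transporters and also carries cysteine into neurons. Parvalbumin, somatostatin and vasoactive intestinal peptide interneurons, the cells for which PV, SST and VIP are commonly used as names, are GABA neurons of the cortex.

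The promoters of the 3 genes that lead the results are shown as a description, and no link between sequence and level was tested. Each lies in the 250 bases upstream of a RefSeq transcription start, on the plus strand of GRCm38.p6. That start is at 70562129 for Gad1, 22622327 for Gad2 and 45163921 for Slc17a7. The RefSeq spans of Gad1 and Gad2 begin earlier, at 70561303 and 22621015, so their stretches lie inside the gene span. For Gad1 and Gad2 only the part of that window before the first exon that GENCODE M21 places inside it is shown. A promoter entry was matched for 7 of the 8 genes, all but Abat. Capitals mark matches on either strand to TATAAA (the TATA box) or GGGCGG (the GC box).
Gad1, chr2:70561879-70562041: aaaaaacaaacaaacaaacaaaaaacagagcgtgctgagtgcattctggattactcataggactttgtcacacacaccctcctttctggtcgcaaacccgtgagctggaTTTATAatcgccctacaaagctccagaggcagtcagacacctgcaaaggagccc
Gad2, chr2:22622077-22622204: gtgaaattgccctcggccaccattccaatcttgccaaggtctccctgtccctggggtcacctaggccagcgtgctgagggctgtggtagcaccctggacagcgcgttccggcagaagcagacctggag
Slc17a7, chr7:45163671-45163920: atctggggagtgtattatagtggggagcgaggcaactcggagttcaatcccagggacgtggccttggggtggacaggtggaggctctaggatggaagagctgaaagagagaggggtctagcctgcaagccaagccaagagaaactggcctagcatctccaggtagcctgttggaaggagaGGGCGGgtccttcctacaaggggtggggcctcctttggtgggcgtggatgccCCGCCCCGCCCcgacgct
The Gad1 stretch of 163 bases held 1 match to TATAAA, on the minus strand, and 7.78% of 32851 RefSeq promoter stretches of that length hold one. Neither motif was found in the 128 bases of Gad2, where 6.38% of equally long stretches hold TATAAA and 13.8% hold GGGCGG. Slc17a7 held 3 matches to GGGCGG in 250 bases, a motif found in 32.7% of stretches of that length. The share of G and C was 46.6% for Gad1, 62.5% for Gad2 and 61.2% for Slc17a7. A match describes the letters only.

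Library totals ran from 1548907 to 15978459 reads and were lowest in PV, where mitochondrial transcripts took 35.1% of the reads on average, against 6.41% to 9.65% in the other subtypes. The defining genes followed the labels, with Pvalb at 201 ± 21.4 CPM (counts normalised to library size, SD, n = 6) in PV, Sst at 1158 ± 261 in SST and Vip at 1727 ± 51.4 in VIP. The 7 excitatory markers summed to 2186 to 5746 CPM in EXC and to at most 918 in any other library. A list of 4 dentate granule cell genes summed to 255 to 588 CPM in EXC and at most 7.51 elsewhere, and 3 genes of cells with motile cilia averaged 59.7 CPM in PV and under 1 in the other subtypes. The 7 oligodendrocyte markers summed to 79.9 to 2943 CPM in EXC, 117 to 446 in PV, 84.0 to 194 in SST and 53.4 to 723 in VIP. EXC replicates 2 and 6 held the most, at 2943 and 2780 CPM. All PV libraries and 5 EXC libraries were sequenced in the pool labelled POOL6188, and EXC replicate 3 in POOL7099. SST had 5 libraries in POOL7098 and 1 in POOL7100, and VIP had 2 in POOL7098 and 4 in POOL7099. Pool and subtype are thus nearly tied, and only PV with EXC and SST with VIP can be compared inside a pool that holds at least 2 libraries of each.

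Gad1 (gene 14415, GRCm38.p6 chr2:70561303-70602014) and Gad2 (gene 14417, chr2:22621015-22693877) were high in the 3 GABA sorts and about an order of magnitude lower in EXC, and their order within the GABA sorts was not the same. Levels are given as CPM scaled by edgeR's TMM factors, which compare libraries but not genes. Gad1 lay between 1033 and 1530 CPM in the PV libraries with a median of 1321. In VIP the Gad1 range was 895 to 1630 with a median of 1284, and in SST it was 576 to 1137 with a median of 791. EXC libraries had 74.7 to 161 CPM of Gad1, with a median of 98.8. No EXC library reached the lowest library of a GABA sort, whereas the ranges of PV, VIP and SST overlapped one another. The log2 fold change of EXC against the mean of the other 3 was -3.44 ± 0.19 (SE) for Gad1, with an edgeR adjusted p of 5.92e-14. In this fold change, for every gene, the mean is taken over the log2 levels of the 3 GABA sorts, not over their CPM. Gad1 was lower in SST than in PV by a log2 change of -0.64 ± 0.19 (edgeR adjusted p = 0.0112) and higher in VIP than in SST by 0.61 ± 0.19 (edgeR adjusted p = 0.0161). That second call was lost without VIP replicate 1 (0.52, edgeR adjusted p = 0.0668) and within POOL7098 (0.55, edgeR adjusted p = 0.124). VIP and PV could not be separated for Gad1, with a log2 change of -0.04 ± 0.19 (edgeR adjusted p = 0.881) that turned positive under some settings. These tests, and those on other genes named further on, were adjusted over 14890 genes.

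Gad2 was highest in SST. The 6 SST libraries had 3258 to 5243 CPM of Gad2 with a median of 4532, against 2336 to 3290 in VIP (median 2885), 2009 to 2582 in PV (median 2277) and 184 to 598 in EXC (median 275). Only the lowest SST library fell inside the VIP range, and no SST library fell inside the PV range. EXC against the mean of the GABA sorts gave a log2 fold change of -3.29 ± 0.21 for Gad2 (edgeR adjusted p = 7.36e-13). SST exceeded PV by 0.96 ± 0.21 (edgeR adjusted p = 0.000954). VIP was lower than SST by a log2 change of -0.62 ± 0.21 (edgeR adjusted p = 0.0264), and within POOL7098 the change was -0.69 (edgeR adjusted p = 0.0287). Leaving out SST replicate 4, 5 or 6 or VIP replicate 1, 2 or 5 ended that call, with log2 changes of -0.53 to -0.62. It was also lost by DESeq2 (-0.54, adjusted p = 0.0541) and, in edgeR, with RLE factors (-0.54, adjusted p = 0.0676), with a filter of 5 CPM in 6 libraries (-0.55, adjusted p = 0.0522) and with pool as a covariate (-0.60, adjusted p = 0.0589). VIP against PV gave 0.34 ± 0.21 (edgeR adjusted p = 0.182). In RPKM, the deposited read counts scaled by gene length and library size, the EXC, PV, SST and VIP means were 14.9, 179, 115 and 179 for Gad1 and 34.6, 238, 460 and 307 for Gad2, so that per length Gad2 averaged more than Gad1 in every subtype.

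**Figure D1:**
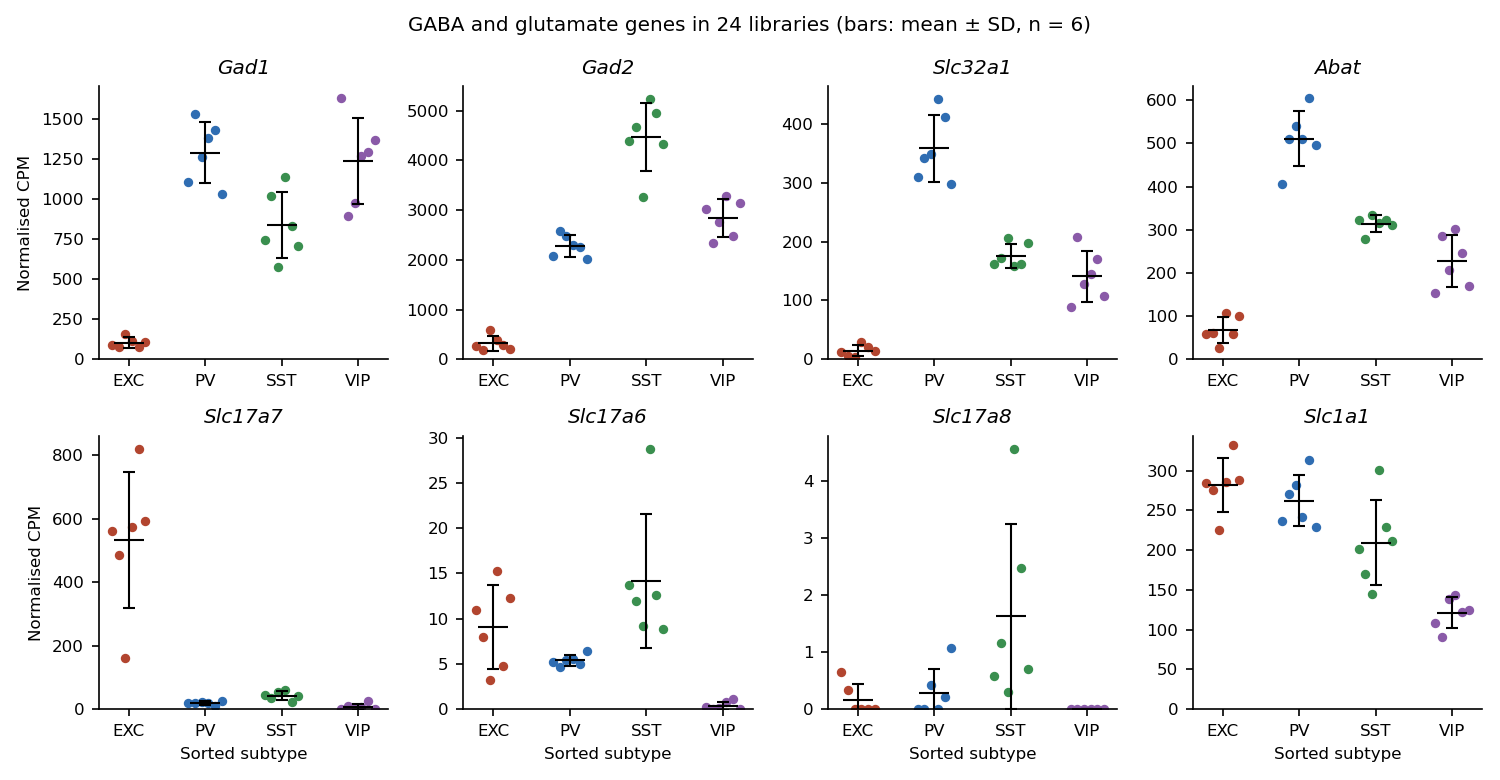
Level of each of the 8 genes in every library, in TMM-normalised CPM on a linear axis that differs between panels, by subtype (n = 6 each). Points are libraries, and the line and bar are the mean and SD, with the lower bar cut at 0 for low genes. Gad1, Gad2, Slc32a1 and Abat sit high in PV, SST and VIP, and Slc17a7 sits high in EXC.

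The ratio of Gad2 to Gad1 reads within a library needs no scaling between libraries, and it set SST apart. It was 4.56 to 6.08 in the SST libraries with a median of 5.77, against 1.84 to 3.72 in EXC (median 3.22), 1.85 to 2.83 in VIP (median 2.44) and 1.57 to 1.96 in PV (median 1.78). The lowest SST library lay above the highest library of every other subtype, while the ranges of EXC, VIP and PV overlapped. Means were 5.45 ± 0.687 (SD, n = 6) in SST, 3.02 ± 0.741 in EXC, 2.35 ± 0.397 in VIP and 1.78 ± 0.163 in PV. As a ratio of RPKM values, which allows for the lengths of the 2 genes, the means were 4.10, 2.27, 1.77 and 1.34.

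The 6 pairs of subtypes were compared by an exact two-sided permutation test on the mean log2 ratio, whose smallest possible p over 924 assignments is 0.00216. SST was 3.05-fold above PV (log2 difference 1.61), with an exact p of 0.00216 and 0.00433 after adjustment over the 6 pairs. SST was also 1.85-fold above EXC (log2 difference 0.88), at the same exact p and adjusted value. VIP stood at 0.428 times SST (log2 difference -1.22), again at an exact p of 0.00216 and an adjusted p of 0.00433. Inside POOL7098, with 5 SST and 2 VIP libraries, that difference was also -1.22, with an exact p of 0.0476, the smallest that 21 assignments allow, and an adjusted p of 0.0571. PV stood at 0.605 times EXC (exact p = 0.00866, adjusted 0.0130) and VIP at 1.30 times PV (exact p = 0.0195, adjusted 0.0234). VIP against EXC was not called, at 0.79 times (log2 difference -0.34, exact p = 0.110, adjusted 0.110), although it was called without EXC replicate 6 (-0.47, adjusted exact p = 0.0195). The ratio therefore differed in 5 of the 6 pairs. SST shares no pool with EXC or PV, and VIP shares none with PV, so in those pairs pool and subtype cannot be told apart.

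**Figure D2:**
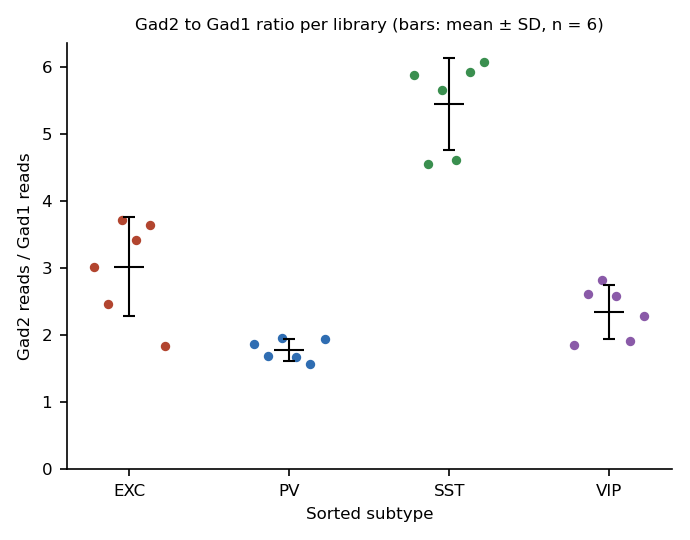
Ratio of Gad2 to Gad1 reads in each library, by subtype (n = 6 each), with the mean and SD. The SST libraries, 4.56 to 6.08, lie above all others, and the PV libraries, 1.57 to 1.96, are the most tightly grouped.

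Slc32a1 (gene 22348, chr2:158607260-158615747), which fills vesicles with GABA, was highest in PV. The PV libraries had 297 to 442 CPM with a median of 345, against 158 to 206 in SST (median 167), 88 to 207 in VIP (median 136) and 4.44 to 29.5 in EXC (median 13.2). No PV library overlapped SST or VIP, SST and VIP overlapped, and every EXC library lay below the rest. The log2 fold change of EXC against the mean of the GABA sorts was -3.88 ± 0.30 (edgeR adjusted p = 4.55e-11). SST was below PV by a log2 change of -1.05 ± 0.29 (edgeR adjusted p = 0.00708) and VIP by -1.32 ± 0.29 (edgeR adjusted p = 0.000577). VIP against SST gave -0.27 ± 0.29 (edgeR adjusted p = 0.519), and -0.84 inside POOL7098 (edgeR adjusted p = 0.00718). A lncRNA, Gm14204, overlaps the first part of Slc32a1 and held 4062 reads over all libraries against 25120 for Slc32a1. Whether the counting used strand is not stated in the labels or headers, so reads of the overlap cannot be assigned with certainty.

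Abat (gene 268860, chr16:8513429-8621568), the enzyme that removes GABA, had the same order of means as Slc32a1. Its levels were 407 to 604 CPM in PV (median 509), 280 to 335 in SST (median 319), 153 to 302 in VIP (median 227) and 26.7 to 107 in EXC (median 59.7). PV libraries again lay above all others and EXC libraries below, with SST and VIP overlapping. EXC against the mean of the GABA sorts gave a log2 change of -2.26 ± 0.21 (edgeR adjusted p = 1.21e-09). SST was below PV by -0.69 ± 0.22 (edgeR adjusted p = 0.0221), which without PV replicate 5 became -0.64 (edgeR adjusted p = 0.0519). VIP was below PV by -1.18 ± 0.22 (edgeR adjusted p = 0.00013). VIP against SST gave -0.48 ± 0.23 (edgeR adjusted p = 0.108), which passed without EXC replicate 3 (-0.46, edgeR adjusted p = 0.0407) and inside POOL7098 (-0.90, edgeR adjusted p = 0.00289). It also passed with no filter (-0.56, edgeR adjusted p = 0.0338), with only those 2 subtypes fitted (-0.52, edgeR adjusted p = 0.0295) and with pool as a covariate (-0.79, edgeR adjusted p = 0.0178).

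The 4 GABA genes were thus ordered differently across the GABA sorts, with PV leading for Slc32a1 and Abat, SST leading for Gad2, and PV and VIP close together for Gad1. No pool holds both PV and SST or both PV and VIP, and a fit with pool as a covariate ties PV to them only through EXC replicate 3. In that fit the differences of SST and VIP from PV changed sign for Gad2, Slc32a1 and Abat, for example to 1.47 for Slc32a1 in SST (edgeR adjusted p = 0.154) and 1.30 for Abat in SST (edgeR adjusted p = 0.0459). For these comparisons with PV, pool and subtype cannot be told apart, and SST and EXC also share no pool. PV against EXC inside POOL6188 gave log2 changes of 3.83 for Gad1, 3.14 for Gad2, 4.58 for Slc32a1 and 2.77 for Abat, beside 3.67, 2.86, 4.67 and 2.89 over all libraries.

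The GABA genes were low but measurable in EXC. As a percentage of the mean CPM of the 3 GABA sorts, the EXC libraries averaged 9.29 ± 2.86 (SD, n = 6) for Gad1, 10.1 ± 4.85 for Gad2, 6.36 ± 4.25 for Slc32a1 and 19.5 ± 8.49 for Abat. The 7 GABA interneuron marker genes, none of them a gene of the list studied here, were all detected in EXC and summed to 3.85 ± 1.39% of the GABA mean, or 59.4 to 136 CPM. The GABA sorts were not alike in this sum, with 673 to 1257 CPM in SST, 2000 to 3361 in VIP and 2520 to 3480 in PV. The averages of single markers in EXC ran from 1.63% for Dlx2, which was at 0 in 2 EXC libraries, to 20.3% for Sp9. In bulk libraries, fewer cells of a type and less RNA per cell cannot be told apart, and the part of GABA cells in the EXC levels was not tested.

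**Figure D3:**
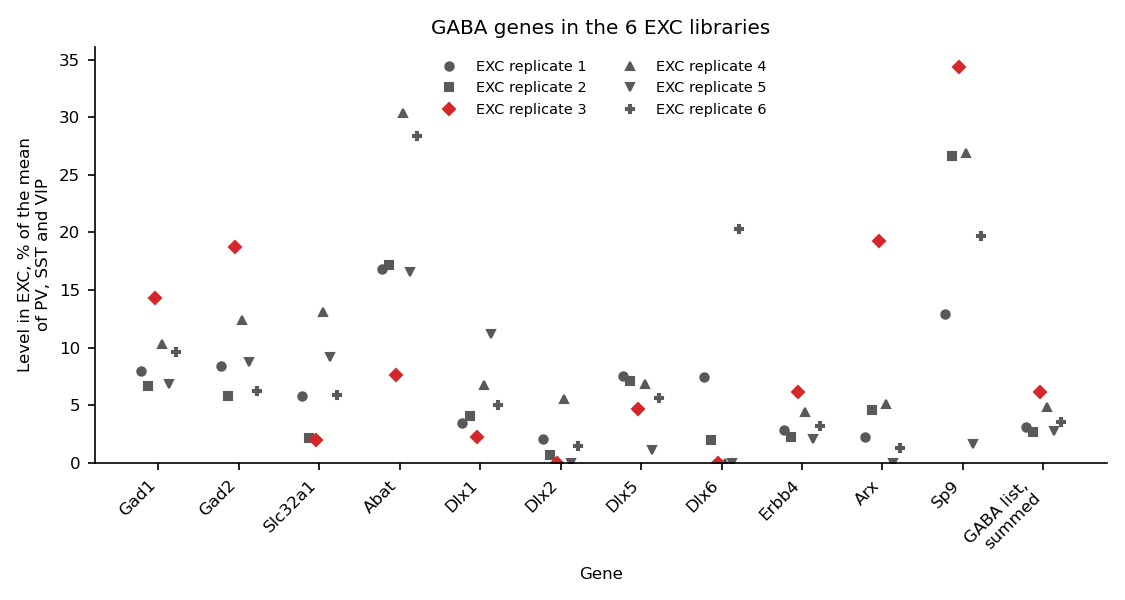
Level in each EXC library as a percentage of the mean of PV, SST and VIP (linear axis), for the 4 GABA genes, 7 GABA interneuron markers and the sum of those markers. Each point is a library, with one symbol per replicate and EXC replicate 3 in red, which is the highest for Gad1 and Gad2 and the lowest for Slc32a1 and Abat.

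EXC replicate 3 stood apart within its subtype. It had the highest EXC levels of Gad1 (161 CPM) and Gad2 (598 CPM) and the lowest of Slc32a1 (4.44), Abat (26.7), Slc17a7 (162), Slc17a6 (3.17) and Slc1a1 (225). Its GABA marker sum of 136 CPM was the highest of the EXC libraries and its excitatory marker sum of 2186 CPM the lowest, the other 5 lying between 4216 and 5746. The pool of this library held no other EXC library. Without it, EXC against the mean of the GABA sorts stayed called for each of the 7 genes that could be tested.

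Slc17a7 (gene 72961, chr7:45163921-45176139) had the largest excess in EXC of the genes tested. EXC libraries had 162 to 820 CPM with a median of 567, against 22.5 to 60.4 in SST (median 42.4), 9.83 to 26.8 in PV (median 19.4) and 0.719 to 24.1 in VIP (median 4.90). The EXC range did not overlap the others, SST overlapped PV at its lower end, and VIP spread from under 1 CPM into the SST range. EXC exceeded the mean of the GABA sorts by a log2 fold change of 4.85 ± 0.35 (edgeR adjusted p = 6.68e-12). Its difference was -3.63 ± 0.49 for SST against EXC (edgeR adjusted p = 1.46e-06), -4.77 ± 0.54 for PV (edgeR adjusted p = 5.36e-08) and -6.16 ± 0.57 for VIP (edgeR adjusted p = 1.38e-09). Inside POOL6188 the PV value was -4.98. With pool as a covariate, SST against EXC became 0.74 (edgeR adjusted p = 0.573), a fit that again rests on EXC replicate 3, the library with the lowest Slc17a7 of its subtype.

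Among the GABA sorts, Slc17a7 was lower in VIP than in SST by a log2 change of -2.53 ± 0.50 (edgeR adjusted p = 0.000339), and by -4.73 inside POOL7098. VIP against PV gave -1.38 ± 0.53 (edgeR adjusted p = 0.0322), a call lost without PV replicate 3, 4 or 6 or VIP replicate 1, 3 or 6, with changes of -1.10 to -1.40, with robust empirical Bayes (-1.38, edgeR adjusted p = 0.0505) and with pool as a covariate, where the sign turned (1.13, edgeR adjusted p = 0.351). It moved by more than 1.5 times without VIP replicate 5, which at 24.1 CPM held the highest Slc17a7 of its subtype (-2.30). SST against PV gave 1.14 ± 0.49 and was not called (edgeR adjusted p = 0.0908), but was called without EXC replicate 3 (1.16, edgeR adjusted p = 0.0477) and without VIP replicate 5 (1.20, edgeR adjusted p = 0.0272). It was called as well when only those 2 subtypes were fitted (1.19, edgeR adjusted p = 0.000529), with no filter (1.22, edgeR adjusted p = 0.000237), without the libraries that were the only one of their subtype in a pool (1.30, edgeR adjusted p = 0.0318) and with pool as a covariate (5.70, edgeR adjusted p = 0.000583). As a percentage of the EXC mean, Slc17a7 averaged 7.98 in SST, 3.67 in PV and 1.40 in VIP, the last being 0.77 without VIP replicate 5. The 7 excitatory markers, all detected in each GABA sort, summed to 12.4%, 10.7% and 12.04% of the EXC mean, or 452 to 796, 336 to 727 and 333 to 918 CPM. These sums do not describe the single markers in VIP, since 6 of the 7 averaged lowest in VIP, at 0.341% to 4.56% of EXC, and only Camk2a averaged highest there, at 18.8% against 14.8% in SST and in PV. Nptx1, for example, averaged 7.58% in SST, 3.33% in PV and 0.541% in VIP, and Nrgn 12.5%, 4.69% and 1.501%, the last being 0.668% without VIP replicate 5. The part of excitatory cells in the Slc17a7 of the GABA sorts was not tested.

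Slc17a6 (gene 140919, chr7:51621830-51671126) was low everywhere, and its order was not that of Slc17a7. SST libraries had 8.82 to 28.8 CPM with a median of 12.3, EXC 3.17 to 15.3 (median 9.48), PV 4.69 to 6.44 (median 5.34) and VIP 0 to 1.10 (median 0.164). VIP held 14 reads in all and did not overlap any other subtype, SST lay above PV, and EXC overlapped both. SST against EXC gave 0.63 ± 0.42 (edgeR adjusted p = 0.245) and PV against EXC -0.79 ± 0.46 (edgeR adjusted p = 0.168), the latter becoming -0.92 inside POOL6188 (edgeR adjusted p = 0.0430). SST exceeded PV by 1.42 ± 0.46 (edgeR adjusted p = 0.0221), but without SST replicate 4 by 1.00 (edgeR adjusted p = 0.142). The log2 change was -4.64 ± 0.57 for VIP against EXC (edgeR adjusted p = 1.90e-07), -3.85 ± 0.59 against PV (edgeR adjusted p = 7.98e-06, and with pool as a covariate -1.84 with 0.239) and -5.27 ± 0.56 against SST (edgeR adjusted p = 4.42e-08). EXC lay above the mean of the GABA sorts over log2 levels by 1.60 ± 0.36 (edgeR adjusted p = 0.000622), and with pool as a covariate by 0.05 (edgeR adjusted p = 0.986). The value of 1.60 rests mostly on VIP, the lowest of the 3. In mean CPM, EXC stood at 9.06, below SST at 14.2 and above PV at 5.40 and VIP at 0.364.

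Slc17a8 (gene 216227, chr10:89574020-89621249) was close to the limit of detection and did not pass the filter on low counts, so edgeR gave no test of it. It held 140 reads in SST, 8 in EXC, 3 in PV and 0 in VIP. Every SST library had reads, at 0.297 to 4.55 CPM with a median of 0.932, and SST replicate 4 alone held 68 of them. Without that library the difference in mean CPM went from 1.46 to 0.874 for SST against EXC and from -1.62 to -1.04 for VIP against SST, and both stayed called by the exact permutation test described next. Over summed reads, SST was 9.59 times EXC, with a 95% counting interval of 4.73 to 22.6, and 8.37 times PV (2.80 to 41.1). Against the floor of 3 counts over the VIP group, SST was at least 23.5-fold higher. Without SST replicate 4, SST was 6.09 times EXC (2.93 to 14.6) and 5.32 times PV (1.75 to 26.4), and at least 14.9-fold higher than VIP. An exact permutation test on CPM, adjusted over the 6 pairs, gave p = 0.0325 for SST against EXC, 0.0823 against PV and 0.0130 against VIP. Without a single EXC library the SST against EXC p became 0.0714 to 0.0952, without a single VIP library that against VIP became 0.0584, and without SST replicate 3 that against PV became 0.0260, all by the exact test. Intervals and floors cover counting error only, and exact tests were chosen for this gene after the data were seen.

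Together the 3 vesicular glutamate transporters made up different mixtures. By summed RPKM, Slc17a7 gave 98.8 ± 0.443% of the VGLUT signal in EXC (SD, n = 6), 96.7 ± 2.89% in VIP, 83.2 ± 4.53% in PV and 80.3 ± 7.65% in SST. Slc17a6 gave 1.17% in EXC, 3.30% in VIP, 16.0% in PV and 17.6% in SST, and the share of Slc17a8 was highest in SST at 2.09%. The whole signal was small in the GABA sorts, since Slc17a7 averaged 106 RPKM in EXC but 8.37 in SST, 3.92 in PV and 1.51 in VIP. These shares are descriptions, and no test was made of them.

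Slc1a1 (gene 20510, chr19:28835135-28913960), the plasma membrane transporter, differed least of the tested genes between EXC and the mean of the GABA sorts, and VIP was its lowest subtype. EXC had 225 to 332 CPM with a median of 285, PV 230 to 314 (median 256), SST 145 to 301 (median 206) and VIP 90.1 to 143 (median 124). No VIP library reached the lowest library of another subtype, and the other 3 overlapped. VIP was lower than EXC by a log2 change of -1.28 ± 0.15 (edgeR adjusted p = 1.54e-07), than PV by -1.14 ± 0.15 (edgeR adjusted p = 8.49e-07) and than SST by -0.84 ± 0.15 (edgeR adjusted p = 0.000121), the last being -0.85 inside POOL7098. PV against EXC gave -0.14 ± 0.15 (edgeR adjusted p = 0.479). SST was lower than EXC by -0.44 ± 0.15 (edgeR adjusted p = 0.0193), but this call was lost without any one of EXC replicates 4, 5 and 6 and SST replicates 1, 2, 3 and 6, with changes of -0.31 to -0.40, and with no filter (-0.37, edgeR adjusted p = 0.130). SST against PV gave -0.31 ± 0.15 (edgeR adjusted p = 0.135), and -0.42 without SST replicate 4 (edgeR adjusted p = 0.0412). EXC against the mean of the GABA sorts gave 0.62 ± 0.12 (edgeR adjusted p = 0.000116), a call lost with pool as a covariate (0.50, edgeR adjusted p = 0.0523). In that fit VIP against PV became -0.86 (edgeR adjusted p = 0.0625) and SST against EXC -0.29 (edgeR adjusted p = 0.551). The mean RPKM of Slc1a1 was 19.8 in VIP, 32.7 in SST, 41.4 in PV and 45.1 in EXC, so that per length it averaged below Slc17a7 in EXC and above it in each GABA sort.

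**Figure D4:**
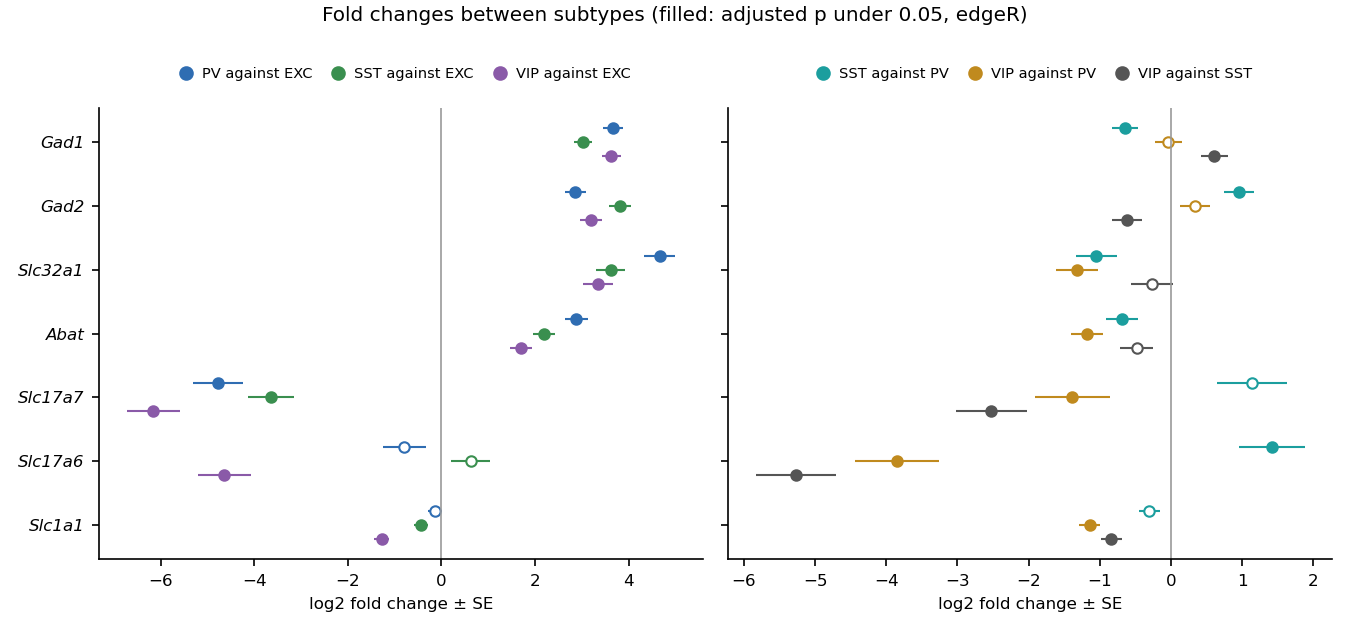
Log2 fold change with its SE from edgeR for the 7 genes tested, with each GABA sort against EXC on the left and the pairs of GABA sorts on the right. Filled points passed an adjusted p of 0.05 over all genes tested and open points did not. On the left, Slc17a7 lies below 0 and Gad1, Gad2, Slc32a1 and Abat above it in each comparison, and on the right Slc17a6 has the most negative values, in VIP against PV and against SST.

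Counted over the list, 7 of 7 tested genes differed in EXC against the mean of the GABA sorts, where 42.5% of all tested genes were called. Of these, 3 were higher (24.5% of all genes) and 4 lower (18.1%). The 3 higher include Slc17a6, whose mean CPM was lower in EXC than in SST. With pool as a covariate 5 of the 7 were called, beside 5838 of all 14890 genes. In PV against EXC 5 of 7 were called (45.9% of all genes), 4 higher (20.3%) and 1 lower (25.6%). In SST against EXC 6 were called (38.4%), 4 higher (17.1%) and 2 lower (21.3%), and with pool as a covariate 4 were called, beside 4874 of all 14890 genes. In VIP against EXC 7 were called (39.1%), 4 higher (18.4%) and 3 lower (20.7%). Between the GABA sorts, 5 of 7 were called in SST against PV (26.3%), 2 higher (14.9%) and 3 lower (11.4%). With pool as a covariate 4 were called in SST against PV, beside 3259 of all 14890 genes. These calls were not all the same ones. Abat was called with its sign turned (1.30, edgeR adjusted p = 0.0459), and Slc17a7 was called only in that fit of the 2. Gad2 also turned sign and was not called (-0.25, edgeR adjusted p = 0.714). In VIP against PV 5 were called (48.6%), 0 higher (26.7%) and 5 lower (21.9%). With pool as a covariate 0 were called in VIP against PV, where the calls over all 14890 genes fell from 7242 to 2341. In VIP against SST 5 were called (31.3%), 1 higher (16.7%) and 4 lower (14.6%), a total that ran from 3 without VIP replicate 1 to 6. Libraries of the 2 subtypes did not overlap for 5 of the 7 genes in PV against EXC (23.2% of all genes), 5 in SST against EXC (18.3%), 7 in VIP against EXC (17.4%), 4 in SST against PV (20.8%), 4 in VIP against PV (27.7%) and 2 in VIP against SST (21.0%). For Gad1, Gad2, Slc32a1, Abat and Slc17a7, EXC overlapped none of the other 18 libraries, which held for 6.61% of all genes.

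Between libraries of female and male mice, 0 of the 7 tested genes were called by edgeR. None of 7 had an unadjusted p under 0.05, none was called by DESeq2, and the log2 changes of female against male ran from -0.23 ± 0.34 for Slc17a7 to 0.18 ± 0.11 for Slc1a1. Of all genes tested, 0.0403% were called for sex. No gene of the list was called for a dependence of the subtype difference on sex (0 with an unadjusted p under 0.05, and 0 by DESeq2).

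A further list of 28 genes of GABA and glutamate handling was counted, of which 23 could be tested. The counts that follow are of genes called by edgeR, each with the share of all tested genes called in the same direction, and the median is over the 23 genes. In EXC against the mean of the GABA sorts, 4 were called higher (24.5% of all genes) and 11 lower (18.1%), with a median log2 change of -0.43 against 0.06 over all genes tested. In PV against EXC, 11 were called higher (20.3%) and 4 lower (25.6%), with medians of 0.77 and -0.12. In SST against EXC, 9 were called higher (17.1%) and 6 lower (21.3%), with medians of 0.26 and -0.06. In VIP against EXC, 6 were called higher (18.4%) and 4 lower (20.7%), with medians of -0.27 and 0.01. Between the GABA sorts, 0 were called higher (14.9%) and 10 lower (11.4%) in SST against PV, with medians of -0.53 and 0.03. In VIP against PV, 4 were called higher (26.7%) and 12 lower (21.9%), with medians of -0.57 and 0.09. In VIP against SST, 2 were called higher (16.7%) and 5 lower (14.6%), with medians of -0.03 and 0.00. PV against SST or VIP cannot be told apart from the pool here either.

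Among the most abundant of the called genes were several with a known place in the cycle. Slc38a1, a glutamine transporter of neurons, was lower in EXC by -1.54 ± 0.13 (edgeR adjusted p = 2.29e-10), with 185 CPM against 411 in VIP, 484 in SST and 786 in PV. Aldh5a1, succinic semialdehyde dehydrogenase, acts just after Abat and was lower in EXC by -0.84 ± 0.16 (edgeR adjusted p = 0.000104). Its levels were 445 CPM in PV, 204 in SST, 191 in VIP and 139.6 in EXC, and VIP against EXC was not called (0.38 ± 0.19, edgeR adjusted p = 0.120). Got1, cytosolic aspartate aminotransferase, was lower in EXC by -0.67 ± 0.17 (edgeR adjusted p = 0.00172), but its levels were 1001 ± 111 CPM in PV, 359 ± 44.97 in SST, 238 ± 84.0 in EXC and 158 ± 37.3 in VIP, so that VIP lay below EXC.

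Slc1a2, the glutamate transporter GLT1 that is best known from astrocytes, was higher in EXC by 1.75 ± 0.25 (edgeR adjusted p = 1.71e-06). It averaged 1614 ± 1143 CPM in EXC, with single libraries from 486 to 3792, and 1212 ± 169 in VIP, 360 ± 153 in PV and 250 ± 38.6 in SST. All 7 astrocyte markers were detected in each subtype, and their summed level was 9.31 to 248 CPM in EXC, 12.04 to 31.1 in VIP, 27.7 to 133 in PV and 5.15 to 15.5 in SST. VIP had more Slc1a2 than PV (log2 change 1.76 ± 0.33, edgeR adjusted p = 0.000111). No pool holds both VIP and PV, so in this pair pool and subtype cannot be told apart. The part of astrocytes in the Slc1a2 levels was not tested.

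**Figure D5:**
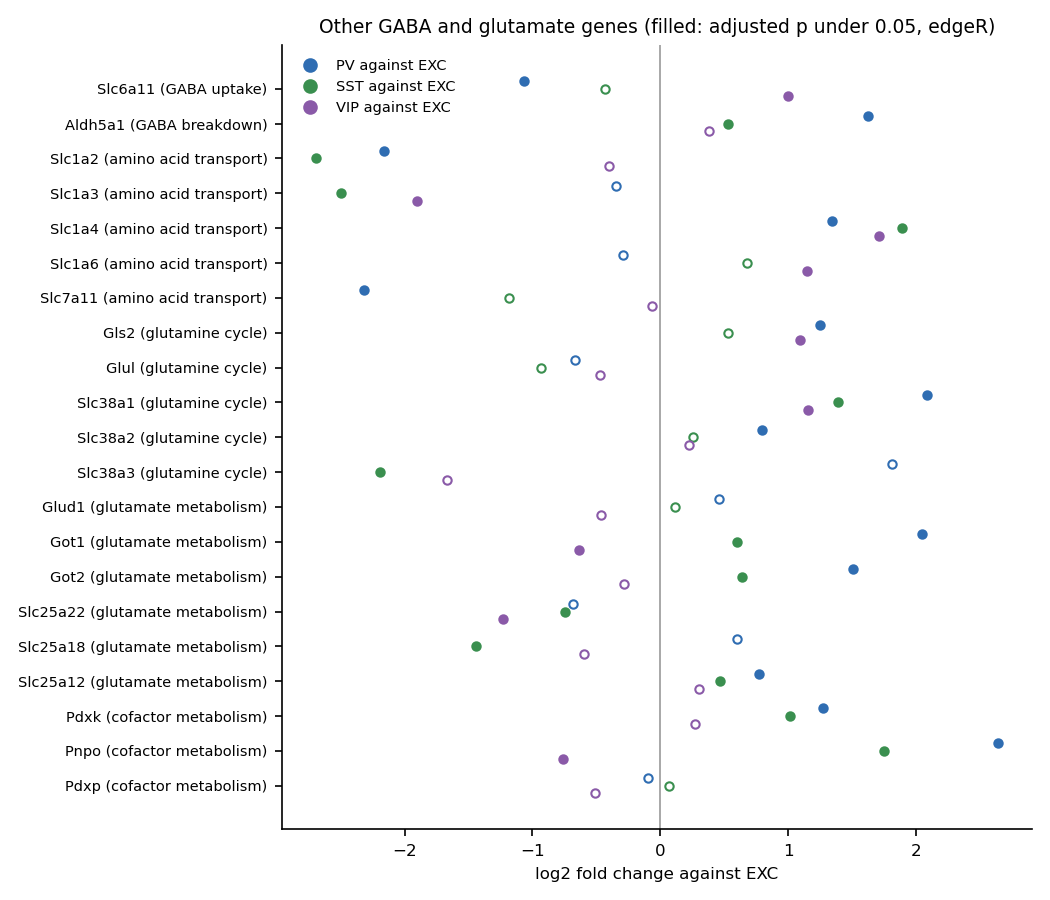
Log2 fold change from edgeR of further GABA and glutamate genes in PV, SST and VIP, each against EXC, with the role of each gene in brackets. Filled points passed an adjusted p of 0.05 over all genes tested and open points did not. Slc38a1 lies above EXC in each of the 3 sorts, and Slc1a2 lies below EXC in PV and SST, with an open point for VIP.

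The genes whose levels followed each member most closely over the 24 libraries were named by Pearson's r on log2 CPM, as a description, since the libraries share subtype, pool and depth. Gad1 was followed by Rbms3 (r = 0.989), Kcnmb2 (0.981) and Erbb4 (0.979), and Gad2 by Gprasp2 (0.991), Nap1l5 (0.981) and Osbpl8 (0.954). No gene was among the 3 nearest of both. Slc32a1 and Abat shared Sulf2 (0.973 and 0.978) and Pcp4l1 (0.961 and 0.977), to which Pde4d (0.969) was added for Slc32a1 and G6pdx (0.973) for Abat. Slc17a7 was followed by Nptx1 (0.981), Nrgn (0.974) and Ddn (0.969). Slc17a6 was followed by Camk1d (0.949), Calb1 (0.948) and Usp46 (0.943), and Slc1a1 by Gpnmb (0.927), Kcnma1 (0.926) and Fam135b (0.925).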

How the data were processed

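Sorted cells of 24 adult mouse cortex samples were measured by bulk RNA-seq. Reads were aligned to GRCm38 with GSNAP, per the submitters' processing notes; its version, the counting program, the annotation and any use of strand: not given in the sources used here. The deposited counts are reads aligned uniquely to a gene model, per the file headers. The deposited RPKM values are adjusted by size factors, per the file headers. They were used to compare genes, for ratios and shares of genes, and for subtype means in RPKM, but in no edgeR test. RefSeq gave symbols for 31049 genes and GENCODE M21 for 77 more. Counts were filtered with filterByExpr by subtype (14890 genes kept) and scaled by TMM, and edgeR 4.0.16 in R 4.3.3 fitted a quasi-likelihood model of subtype and sex to the 24 libraries together. A call needed a Benjamini-Hochberg adjusted p below 0.05. The SE is the log2 change divided by the square root of F. Ratios were tested by exact permutation with scipy 1.17.1. Library totals ran from 1548907 to 15978459 reads, so counting error is largest in PV. The 60 replicate pairs differed by more than sampling noise (lowest chi-square divided by its degrees of freedom 5.1).

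All 8 members are named. Of the further list, the rule named the 6 called genes with the highest mean CPM in any subtype, of which 2 are not reported here, and for likeness the 3 genes with the highest Pearson's r on log2 CPM (prior count 2). Members, lists and markers were chosen with earlier results of these data known. Alternatives were DESeq2 1.42.0, RLE and upper-quartile factors, other filters, robust empirical Bayes, no sex term, pool as a covariate, fits of only the subtypes compared, single pools, no mitochondrial genes, leaving out the library of a subtype that was the only one in its pool, and each library left out in turn. The edgeR script was tested on simulated counts.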

Additional observations from a re-analysis of the deposited data

Results flagged for a closer look

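In VIP replicate 5, Slc17a7 stood at 24.1 CPM, far above the other 5 VIP libraries relative to the range of the group. SST replicate 4 stood apart in the same way for Slc17a6, at 28.8 CPM, and also held the highest SST levels of Gad1, Gad2, Slc17a7, Slc17a8 and Slc1a1 and the lowest of Slc32a1, while its summed GABA interneuron markers, at 1257 CPM, were the highest of SST (the others 673 to 1078) and its summed excitatory markers, at 566 CPM, lay within the range of SST. The part of either marker list in these levels was not tested. Chance marks about 1 in 20 groups by this measure, and 35 groups of 6 libraries were looked at.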

How the results depend on the processing

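No paired analysis was possible because the labels carry no replicate numbers. Of 52 results of a gene in a comparison, 27 kept direction and call under every alternative and 37 under all but pool as a covariate, a fit that ties PV to SST and VIP through EXC replicate 3 alone; the cause of changes is not tested beyond that. With pool as a covariate, the genes of the list called in VIP against PV went from 5 to 0, while calls over all 14890 genes went from 7242 to 2341. In that fit log2 changes reversed to 0.74 for Slc17a7 in SST against EXC, to -0.25 (Gad2), 1.47 (Slc32a1) and 1.30 (Abat) in SST against PV, to -0.85 (Gad2), 0.79 (Slc32a1), 0.51 (Abat) and 1.13 (Slc17a7) in VIP against PV, and to -0.015 for Abat in female against male. Gad1 in VIP against PV, not called in any fit, became 0.029 by DESeq2 and 0.029 with RLE factors, and ranged from -0.099 to 0.053 when 1 library was left out. Leaving out 1 library gave 3 to 6 genes called in VIP against SST, and -0.47 to -0.27 for the log2 Gad2 to Gad1 ratio in VIP against EXC. Within the shared pool the ratio in VIP against SST was -1.22 with an adjusted exact p of 0.0571, as 7 libraries cannot give a smaller exact p. Upper-quartile factors, no sex term and the removal of mitochondrial genes changed no call. Slc17a8, with at most 140 reads in a subtype, is limited by depth.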
